A study of Mus musculus with 13 samples.

Results

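The transcripts described here encode 35 lysosomal proteins and their regulators in mouse mammary gland. They were chosen by symbol, and all 35 stood among the 23951 symbols of the deposited tables. By role they were 9 cathepsins, 15 other hydrolases, 2 soluble activators or lipid carriers (Psap and Npc2), 6 membrane proteins, 2 cathepsin inhibitors and the transcription factor gene Tfeb. RNA sequencing of whole, flash-frozen glands gave 13 libraries from female mice. The tested glands carried a conditional knockout (KO) of Jak1, a kinase that transmits cytokine signals to STAT factors, and the control glands were labelled wildtype. At day 2 of involution, the regression of the gland after nursing ends, there were 4 KO libraries (M43196, M43767, M44176 and M44440, each M with a mouse number) and 3 control libraries (M44448, M43768 and M43914). At day 7 of lactation there were 3 KO libraries (M44174, M42734 and M43767) and 3 control libraries (M42186, M43768 and M44175). The titles hold 11 different mouse numbers, because KO M43767 and control M43768 stand at both stages. The labels' protocol counts 7 KO and 6 control mice, so whether a mouse gave libraries of both stages is not settled. The Cre line that deletes Jak1, the deleted exons, the age of the mice and any floxed allele or Cre in the controls are not given in the labels.

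Lysosomes break down proteins, glycans and lipids with acid hydrolases, which a proton pump keeps at low pH and which membrane glycoproteins such as LAMP1 and LAMP2 confine. Cathepsins are a group of lysosomal proteases, mostly cysteine proteases, with cathepsin D an aspartic and cathepsin A a serine protease. In the involuting mouse mammary gland STAT3, which JAK1 can phosphorylate, is known for a form of cell death in which cathepsins B and L leak from lysosomes of secretory cells. TFEB switches on many lysosomal genes together through sites built around the letters CACGTG.

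Jak1 itself did not set the genotypes apart. Jak1 stood at 23.0, 22.2, 26.3 and 17.3 FPKM (fragments scaled for transcript length and sequencing depth) in KO glands and at 24.3, 24.0 and 24.6 FPKM in control glands at involution. At lactation its values were 9.51, 10.2 and 11.2 FPKM in KO glands and 14.2, 14.0 and 6.18 FPKM in control glands. Levels overlapped at both stages, at lactation only because control M44175 stood at 6.18 FPKM. KO and control below therefore stand for the libraries so labelled. How many fragments were sequenced is unknown here. Depth relative to the mean of its table, read from the steps of low values, ran from 0.485 (KO M43196) to 1.50 (KO M44440) at involution and from 0.723 (control M44175) to 1.29 (KO M44174) at lactation. Control M44175 at lactation stood apart, with FPKM summing to 871630 against 312976 to 421592 in the other 5 lactation libraries, and it held the highest value of its stage for 40.6% of all genes and the lowest for 31.7%. KO M43196 had the largest sum at involution, 1367558 against 590437 to 958496 in the other involution libraries. It held the highest value of its stage for 16.1% of all genes and the lowest for 16.2%. Its 7 neutrophil markers summed to 436 FPKM, against 34.7 to 237 FPKM in the others.

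The promoters of these genes are shown because TFEB and STAT3 are the factors known to bear on them. Promoter sequences came from RefSeq (mouse build GRCm38.p6) and covered the 250 bases before the annotated start. Of 35 members 30 matched the table, and Ctsb, Ctsh, Asah1, Cstb and Npc1 did not. The letters CACGTG, which read the same on both strands, stood in 11 of the 30 matched members (36.7%), against 6.86% of all 27025 genes with a promoter and 6.02% of all 32851 promoters. These members were Ctsa, Ctsd, Ctsf, Ctsl, Gaa, Gla, Glb1, Lamp1, Lgmn, Mcoln1 and Naglu. The longer palindrome TCACGTGA, which contains CACGTG, stood in 4 of 30 members and in 0.907% of all genes. The STAT-type palindrome TTCNNNGAA stood in 1 of 30 members, Ctsc, and in 8.13% of all genes. These are matches of letters and say nothing of binding in the gland. The stretches below are those of Lamp1, which has the most copies, of the channel gene Mcoln1, of 4 proteases and of Ctsc, with CACGTG in capitals, or TTCNNNGAA in capitals for Ctsc, written 5′ to 3′ on the strand of the gene.
Lamp1, chr8:13159080-13159160, plus strand: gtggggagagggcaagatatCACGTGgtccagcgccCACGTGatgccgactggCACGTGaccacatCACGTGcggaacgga
Mcoln1, chr8:3500428-3500499, plus strand: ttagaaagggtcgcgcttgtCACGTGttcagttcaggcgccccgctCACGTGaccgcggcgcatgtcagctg
Ctsd, chr7:142387900-142388077, minus strand: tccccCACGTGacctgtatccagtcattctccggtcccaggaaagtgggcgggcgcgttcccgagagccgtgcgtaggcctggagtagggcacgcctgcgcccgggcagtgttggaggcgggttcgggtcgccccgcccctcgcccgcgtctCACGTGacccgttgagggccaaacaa
Ctsa, chr2:164833741-164833772, plus strand: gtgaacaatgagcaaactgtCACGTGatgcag
Ctsl, chr13:64370731-64370770, minus strand: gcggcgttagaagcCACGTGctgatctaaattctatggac
Lgmn, chr12:102439116-102439161, minus strand: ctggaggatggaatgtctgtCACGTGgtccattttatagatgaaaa
Ctsc, chr7:88277835-88277877, plus strand: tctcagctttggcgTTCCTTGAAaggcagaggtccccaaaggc
Lamp1 carried 4 copies of CACGTG within these 81 bases, and Mcoln1, Ctsd and Gla carried 2 copies each.

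Ctsd, Ctsl, Psap and Cst3 were among the abundant messages of the involuting gland, and most members stood a little lower in KO than in control glands, with no member past the adjusted threshold. At involution 27 of 35 members had a log2 difference (KO minus control) below 0, against 48.2% of the 12509 genes tested. The median log2 difference was -0.17 over the members and 0.01 over all genes tested. With limma on log2(rescaled FPKM + 1) and Benjamini-Hochberg adjustment, 0 of 35 members passed 0.05, whereas 9 of all genes did (0.0719%). At an unadjusted p under 0.05 stood 6 members (6.84% of all genes in either direction), of which Lipa, Manba, Scarb2 and Ctsb were lower in KO glands (3.24% of all genes) and Ctsk and Lgmn were higher (3.6%). The 6 became 2 without control M43768 or control M43914, and 3 without KO M43196 or KO M43767. In 3 members (Lipa, Manba and Neu1) every KO library lay below every control library, as in 4.42% of all genes, and in 1 member, Lgmn, every KO library lay above every control library, as in 2.67% of all genes. Fewer cells of a type and less RNA per cell cannot be told apart in these whole-gland libraries.

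**Figure D1:**
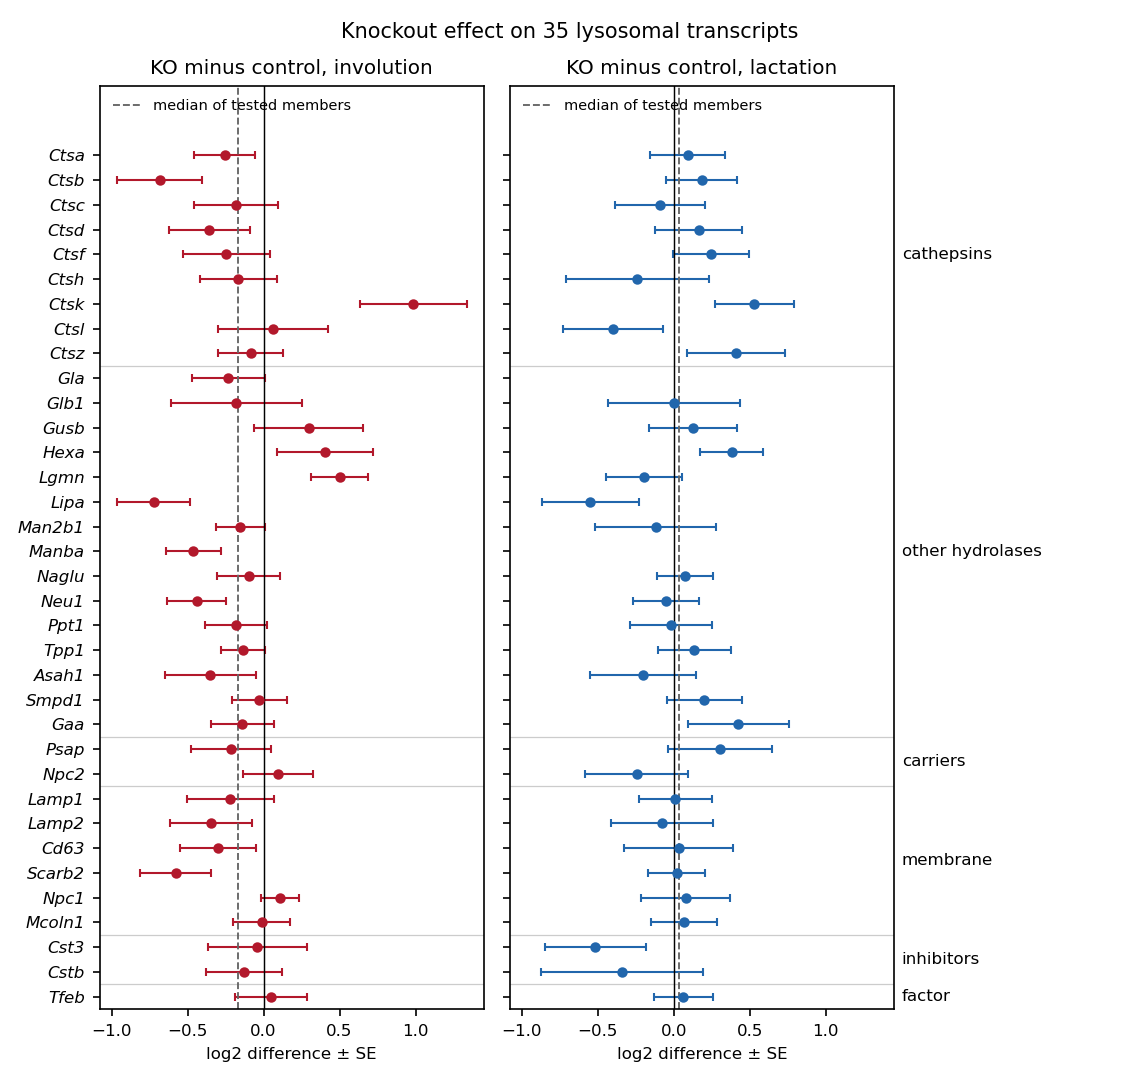
Log2 difference (KO minus control, limma, rescaled FPKM + 1) with its standard error for each of the 35 transcripts, at involution on the left and lactation on the right, grouped by role. Points left of the solid line at 0 are lower in KO glands, the dashed line is the median of the tested members (-0.17 at involution, 0.03 at lactation), and Gla and Manba have no point at lactation because they were under the filter on low values.

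The members' differences at involution varied with single libraries. KO M43767 held the lowest value of the 7 libraries in 15 members and KO M44440 in 13, where the shares over all genes were 12.5% and 15.6%. Control M43914 held the highest value in 14 members, where the share over all genes was 20.5%. The median log2 difference of the members was -0.08 without control M43914, -0.09 without KO M44440, -0.10 without KO M43767 and -0.23 without KO M43196. Macrophages are rich in lysosomes, and their markers differed among these libraries too. Of 12 macrophage markers 11 were in the table, none of them at 0 in all libraries of a group, and their summed FPKM was 942, 517, 600 and 328 in KO M43196, M43767, M44176 and M44440, and 511, 383 and 405 in control M44448, M43768 and M43914. Of the 11 markers 9 had a log2 difference above 0, with a median of 0.37. In the same library order as these sums, the median log2 deviation of the members from the stage mean was 0.18, -0.32, 0.10 and -0.25 in KO glands. In control glands it was 0.03, 0.04 and 0.20. The 10 luminal epithelial markers summed to 1556 to 2504 FPKM in KO glands and to 1543 to 2216 FPKM in control glands. Of these 10 markers 8 had a log2 difference below 0, with a median of -0.16 beside -0.17 for the members. The sums of 11 adipocyte markers were 4770 to 17074 FPKM in KO glands and 4434 to 8717 FPKM in control glands. The part of these cell types in the member levels was not tested.

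Among the cathepsins, Ctsb stood lower in KO glands at involution and Ctsl did not. Ctsb, a cysteine protease of the lysosomal death pathway, stood at 349, 238, 376 and 209 FPKM in KO glands and at 351, 499.98 and 576 FPKM in control glands at involution. Of the 4 KO libraries 3 lay below every control, and KO M44176 lay just above the lowest control. Its mean was 293 ± 81.4 FPKM (SD, n = 4) in KO glands and 475 ± 114 FPKM (SD, n = 3) in control glands, a log2 difference of -0.68 ± 0.28 (SE) with an adjusted p of 0.703 in limma. Ctsl, its partner cysteine protease in that pathway, stood at 947, 424, 1187 and 849 FPKM in KO glands and at 703, 682 and 982 FPKM in control glands. The KO libraries spanned both the lowest and the highest value of the stage. The log2 difference of Ctsl was 0.06 ± 0.36 (SE, adjusted p = 0.998, limma), and it ran from -0.13 without KO M44176 to 0.36 without KO M43767.

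Ctsd, the aspartic protease and the most abundant cathepsin transcript in every control library, stood at 1077, 679.7, 1080.4 and 828 FPKM in KO glands and at 971, 1108 and 1499.6 FPKM in control glands at involution. The groups overlapped, and the log2 difference was -0.36 ± 0.26 (SE, adjusted p = 0.940, limma), with -0.19 without control M43914 and -0.22 without KO M43767. Ctsk, a collagen-degrading protease best known from osteoclasts, ran the other way. It stood at 20.1, 14.4, 12.8 and 9.12 FPKM in KO glands and at 11.7, 4.58 and 4.92 FPKM in control glands. KO M44440 alone lay under the highest control. The log2 difference of Ctsk was 0.98 ± 0.35 (SE, adjusted p = 0.626, limma), the largest in size among the members at involution. The 8 fibroblast markers, all with a log2 difference above 0 (median 0.77), summed to 817, 412, 664 and 317 FPKM in KO glands and to 418, 185 and 266 FPKM in control glands, in the same library order, and their part in the Ctsk levels was not tested. The other cathepsins overlapped between the groups: Ctsa, a carboxypeptidase that also shields sialidase and beta-galactosidase, ran from 86.7 to 134 FPKM in KO glands and from 109.7 to 150.4 FPKM in control glands. Ctsh, an aminopeptidase, ran from 93.5 to 171 FPKM in KO glands and from 113 to 179 FPKM in control glands. Ctsz, a carboxypeptidase, ran from 114 to 184 FPKM in KO glands and from 138 to 193 FPKM in control glands. Lower in abundance were Ctsc, the dipeptidyl peptidase that activates granule proteases of leukocytes, at 36.8 to 53.8 FPKM in KO glands and 37.3 to 79.8 FPKM in control glands, and the cysteine protease gene Ctsf, at 11.8 to 21.9 FPKM in KO glands and 13.9 to 26.9 FPKM in control glands. Over the 9 cathepsins 7 log2 differences were below 0, with a median of -0.18 that became 0.01 without control M43914.

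**Figure D2:**
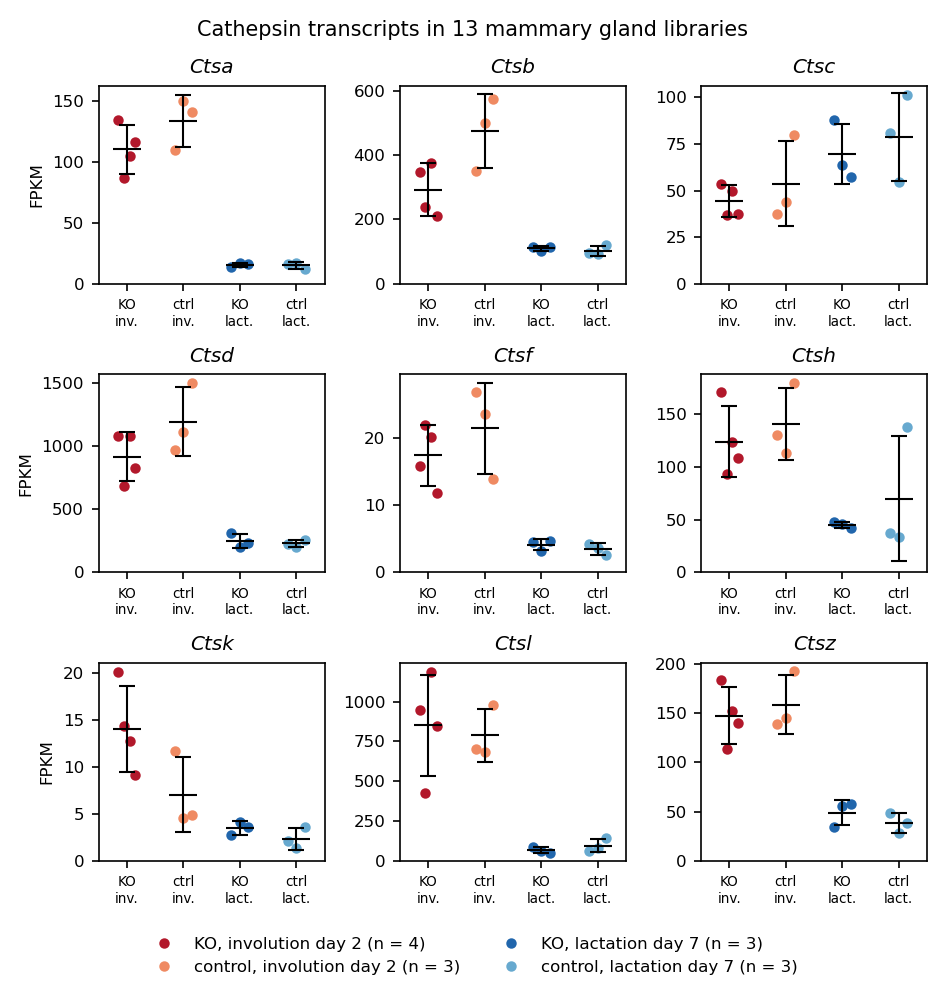
FPKM of the 9 cathepsin transcripts in each of the 13 libraries (points), with group means and SD (bars), on linear axes that start at 0. At involution Ctsb lies lower in 3 of 4 KO glands than in any control gland, Ctsk lies higher in 3 of 4, and Ctsl spans 424 to 1187 FPKM among KO glands.

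Ctsb took a smaller share of the summed cathepsin message in KO than in control glands at involution. Summed FPKM of the 9 cathepsins ran from 1709 to 3105 in KO glands and from 2479 to 3669 in control glands at involution. Ctsb made up 9.07% to 13.9% of this sum in KO glands and 14.1% to 18.0% in control glands. The groups did not overlap, but the gap from KO M43767 (13.94%) to control M44448 (14.14%) was small beside the spread within each group. Ctsl made up 24.8% to 38.2% in KO glands and 24.6% to 28.4% in control glands, and Ctsd 34.8% to 39.8% in KO glands and 39.2% to 40.9% in control glands. These shares are a description, and no test was made on them. At lactation the shares of Ctsb overlapped, at 16.3% to 19.8% in KO glands and 14.7% to 17.9% in control glands, as did those of Ctsl, at 8.93% to 12.3% in KO glands and 11.3% to 17.7% in control glands.

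Among the other hydrolases, the lipid enzyme gene Lipa and the glycan enzyme genes Manba and Neu1 stood lower in KO glands at involution and the protease gene Lgmn stood higher. Lipa, the acid lipase that frees cholesterol and fatty acids from esters, stood at 109, 101, 159 and 88.0 FPKM in KO glands and at 176, 230.3 and 164 FPKM in control glands. Every KO library lay below every control library. Its mean was 114 ± 31.1 FPKM (SD, n = 4) in KO glands and 190.2 ± 35.2 FPKM (SD, n = 3) in control glands, a log2 difference of -0.72 ± 0.24 (SE), the smallest p among the members, with an adjusted p of 0.599 in limma. Manba, the lysosomal beta-mannosidase, stood at 6.01, 4.46, 5.08 and 5.95 FPKM in KO glands and at 9.97, 6.42 and 7.57 FPKM in control glands. The groups did not overlap, with a gap of KO M43196 to control M43768 that is small beside the spread of the controls, and the log2 difference was -0.46 ± 0.18 (SE, adjusted p = 0.666, limma). Neu1, the sialidase, stood at 34.6, 25.3, 36.9 and 35.1 FPKM in KO glands and at 37.9, 43.9 and 56.4 FPKM in control glands, again with no overlap. The gap from KO M44176 to control M44448 was small beside the spread of the controls, and its unadjusted limma p was not under 0.05.

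Lgmn, an asparaginyl endopeptidase that cuts cathepsin precursors into their mature chains, stood at 93.2, 68.2, 92.7 and 64.6 FPKM in KO glands and at 57.4, 58.8 and 52.6 FPKM in control glands at involution. Every KO library lay above every control library, the only member of which this holds, while it held for 2.67% of all genes. Its mean was 79.7 ± 15.4 FPKM (SD, n = 4) in KO glands and 56.3 ± 3.26 FPKM (SD, n = 3) in control glands, a log2 difference of 0.50 ± 0.19 (SE, adjusted p = 0.654, limma). Of the 15 other hydrolases 12 log2 differences were below 0 (median -0.15, or -0.069 without KO M44440 and -0.076 without control M43914), and the 3 above 0 were Lgmn, Hexa and Gusb. Hexa, the alpha subunit of beta-hexosaminidase, ran from 21.9 to 55.6 FPKM in KO glands and from 23.5 to 37.0 FPKM in control glands. Gusb, the beta-glucuronidase, ran from 29.1 to 54.4 FPKM in KO glands and from 22.1 to 63.7 FPKM in control glands. The remaining 9 overlapped as well: the glycosidase genes Gla, Glb1, Man2b1, Naglu and Gaa had group means from 2.12 (Gla) to 26.2 FPKM (Gaa) in KO glands and from 2.75 (Gla) to 29.4 FPKM (Gaa) in control glands. The peptidase Tpp1 averaged 27.7 FPKM in KO glands and 31.0 FPKM in control glands. Ppt1, which removes fatty acids from proteins, averaged 63.7 FPKM in KO glands and 72.8 FPKM in control glands. The sphingolipid enzymes acid ceramidase (Asah1) and acid sphingomyelinase (Smpd1) averaged 34.9 and 16.7 FPKM in KO glands, and 47.1 and 17.1 FPKM in control glands.

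Of the 6 membrane protein transcripts 5 had a log2 difference below 0 at involution (median -0.26). This median was -0.083 without control M43914, -0.15 without KO M43767 and -0.16 without KO M44440. Scarb2, the membrane receptor that carries glucocerebrosidase to the lysosome, stood at 34.9, 25.4, 47.4 and 30.8 FPKM in KO glands and at 54.6, 42.5 and 59.8 FPKM in control glands. Only KO M44176 lay above the lowest control, and the log2 difference was -0.58 ± 0.23 (SE, adjusted p = 0.687, limma). Lamp2, a main glycoprotein of the lysosomal membrane, stood at 119, 98.2, 165 and 121 FPKM in KO glands and at 122, 145 and 234 FPKM in control glands. The log2 difference of Lamp2 was -0.35 ± 0.27 (SE, adjusted p = 0.945, limma), and it was -0.09 without control M43914, whose 234 FPKM was the highest value of the stage. Lamp1, the other main membrane glycoprotein, ran from 192 to 328 FPKM in KO glands and from 233 to 407 FPKM in control glands. Cd63, a tetraspanin of late endosomes and lysosomes, stood at 406, 214, 302 and 231 FPKM in KO glands and at 353, 349 and 347 FPKM in control glands. The control values lay close together and inside the range of the KO values. The cholesterol transporter Npc1 ran from 9.16 to 10.3 FPKM in KO glands and from 8.41 to 9.81 FPKM in control glands, and the calcium channel Mcoln1 from 18.4 to 28.6 FPKM in KO glands and from 20.9 to 29.0 FPKM in control glands.

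**Figure D3:**
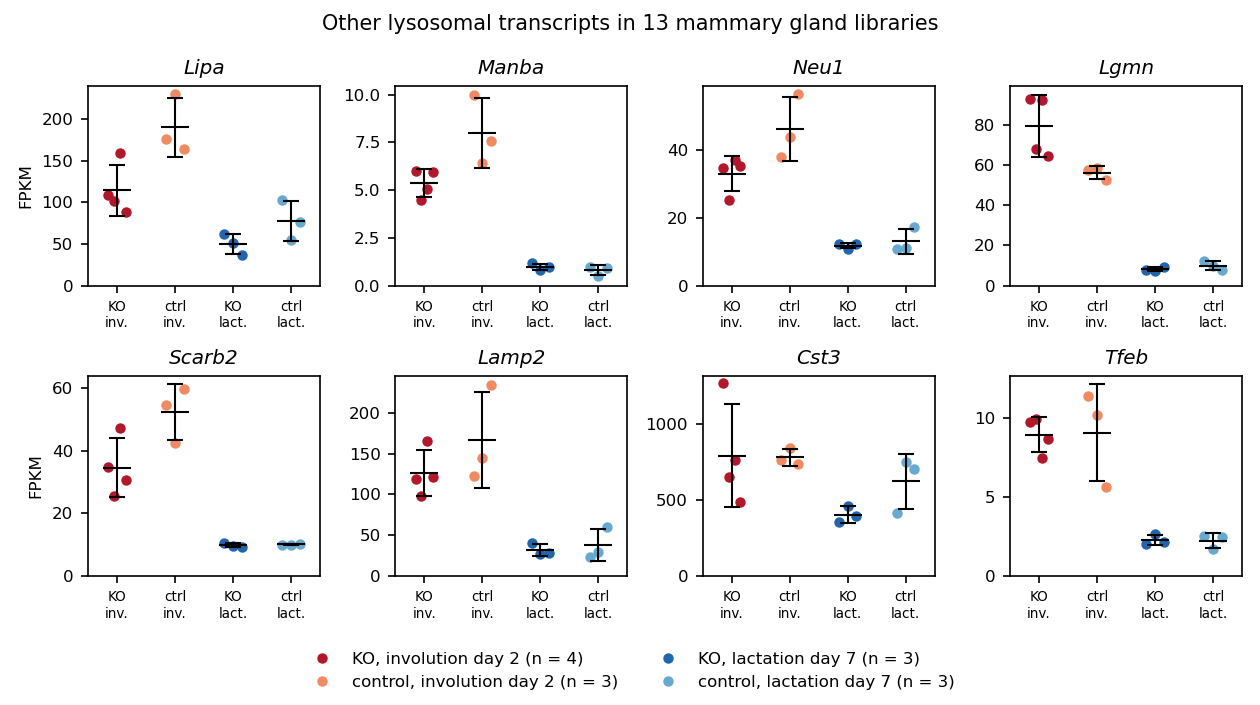
FPKM of 8 further members in each of the 13 libraries (points), with group means and SD (bars), on linear axes that start at 0. At involution KO and control points do not overlap for Lipa, Manba, Neu1 and Lgmn, and at lactation the genotypes overlap in all 8 panels.

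The carriers, inhibitors and Tfeb showed no separation at involution. Psap, the precursor of the saposins that activate sphingolipid hydrolases, ran from 587 to 860.2 FPKM in KO glands and from 600.4 to 991 FPKM in control glands. Npc2, which hands cholesterol to NPC1, ran from 99.2 to 147 FPKM in KO glands and from 99.1 to 150.3 FPKM in control glands. Cst3, the secreted cysteine protease inhibitor cystatin C, stood at 1266, 649, 762 and 483 FPKM in KO glands and at 761, 841 and 733 FPKM in control glands. The KO values surrounded the control values on both sides, and KO M43196, the highest, also had the highest macrophage sum. Cstb, the cytosolic inhibitor stefin B, ran from 164 to 289.9 FPKM in KO glands and from 218 to 325 FPKM in control glands. Tfeb stood at 9.78, 9.95, 7.50 and 8.67 FPKM in KO glands and at 11.4, 10.2 and 5.63 FPKM in control glands. Its log2 difference was 0.05 ± 0.24 (SE, adjusted p = 0.998, limma), and its sign turned without control M43914 (-0.24) and with weights for single libraries (-0.03).

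At lactation the genotypes did not separate in any member. Of the 33 members that passed the filter on low values, 13 had a log2 difference below 0, against 48.8% of the 9560 genes tested, and the median was 0.03 against 0.01 over all genes. With limma 0 of 33 passed the adjusted threshold (0.0105% of all genes, 1 gene), and 0 had an unadjusted p under 0.05 (2.38% of all genes, 0.607% lower and 1.78% higher in KO glands). With weights for single libraries 5 members had one, and without control M44175 there were 2. In 0 members every KO library lay below (3.17% of all genes) or above (2.89%) every control library. Ctsb stood at 114, 102 and 115 FPKM in KO glands and at 95.4, 91.7 and 120.4 FPKM in control glands, a log2 difference of 0.18 ± 0.24 (SE, adjusted p = 0.998, limma). Ctsl stood at 86.6, 61.0 and 51.9 FPKM in KO glands and at 64.6, 78.2 and 145 FPKM in control glands (log2 difference -0.40 ± 0.33, SE, adjusted p = 0.998, limma), the highest value being that of control M44175. This difference was -0.12 without control M44175 and -0.26 without KO M43767. Ctsd stood at 312, 197 and 234 FPKM in KO glands and at 222, 204 and 259 FPKM in control glands (log2 difference 0.17 ± 0.29, SE, adjusted p = 0.998, limma). All of these ranges overlapped. Lipa and Ctsk had the lowest and the highest log2 difference of the 33 members, each with the sign it had at involution. These were -0.55 ± 0.32 for Lipa and 0.53 ± 0.26 for Ctsk (SE, adjusted p = 0.998 for each, limma), and the groups overlapped for both. The knockout effect at involution minus that at lactation was -0.17 ± 0.40 for Lipa and 0.45 ± 0.48 for Ctsk (SE, adjusted p = 0.999 for each, limma).

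Control M44175 set the spread of the lactating controls for several members. Ctsh stood at 37.2, 33.6 and 138 FPKM in control M42186, M43768 and M44175, beside 47.7, 45.7 and 42.1 FPKM in KO glands. Cstb stood at 43.5, 57.9 and 218 FPKM in the same controls, beside 78.4, 65.7 and 45.5 FPKM in KO glands. Control M44175 held the highest lactation value in 12 members and the lowest in 9, so its deviation ran both ways. The median coefficient of variation over the members was 22.4% in KO glands and 21.2% in control glands at involution, and 17.2% in KO glands and 30.0% in control glands at lactation. Lamp2 stood at 40.4, 26.5 and 28.5 FPKM in KO glands and at 23.7, 28.8 and 60.5 FPKM in control glands, a log2 difference of -0.08 ± 0.34 (SE, adjusted p = 0.998, limma) that was 0.26 without control M44175. Tfeb stood at 2.03, 2.63 and 2.14 FPKM in KO glands and at 2.56, 1.71 and 2.45 FPKM in control glands, with a log2 difference of 0.06 ± 0.19 (SE, adjusted p = 0.998, limma).

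The difference between the knockout effects of the stages was tested in one fit over all 13 libraries. No member passed (0 of 35 with limma, against 0.0789% of 12667 genes, or 10 genes), and 3 had an unadjusted p under 0.05 (3.35% of all genes). Ctsb had an effect lower at involution than at lactation by a log2 difference of -0.87 ± 0.35 (SE), where 1.89% of all genes had an unadjusted p under 0.05 in that direction. Manba and Gla were under the filter on low values at lactation and entered this fit through their involution values. Adding 1 FPKM shrinks their lactation effects, so their values (-0.63 for Manba and -0.31 for Gla) are a description only. Both are counted among the 35 members, and Manba is 1 of the 3 at an unadjusted p under 0.05. Lgmn had an effect higher at involution by 0.70 ± 0.30 (SE), where 1.46% did. The adjusted p was 0.999 for Ctsb and for Lgmn in limma. Of the 35 members 25 had a difference below 0 (median -0.17), against 48.9% of all genes. So had 7 of 8 endothelial markers (median -0.48), 8 of 11 adipocyte markers (-0.25) and 6 of 10 luminal markers (-0.16). Also below 0 were 4 of 5 tested neutrophil markers (-0.19) and 3 of 5 B and plasma cell markers (-0.04). Above 0 were 7 of 11 macrophage markers (0.23), 6 of 9 basal epithelial markers (0.28) and 3 of 3 T and NK cell markers (0.71). Fibroblast markers were split, 4 below and 4 above (0.006). The part of these cell types was not tested. With mouse number as a block, 7 members had an unadjusted p under 0.05 and 0 passed the adjusted threshold, with an adjusted p of 0.222 for Ctsb in limma. The 3 members at an unadjusted p under 0.05, Manba included, numbered 0 without KO M44174 or without control M43768 at lactation, and 1 without KO M43767 or without control M43914 at involution.

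Involution stood above lactation for most members in the deposited FPKM, but so did most genes. As deposited, every involution library lay above every lactation library in 30 of 35 members in KO glands (81.2% of all genes) and in 28 of 35 in control glands (74.6%), and below in 1 member in KO glands (2.42% of all genes) and in 0 in control glands (2.4%). The 75th percentile of FPKM ran from 8.61 to 9.07 in involution libraries and from 3.06 to 3.21 in lactation libraries, and the tables may have been normalized separately, so levels are set side by side without a test. With all 13 libraries put on one scale by median of ratios, 14 members lay above in KO glands (29.6% of all genes) and 18 in control glands (27.7%), and 4 lay below in each (18.3% of all genes in KO glands, 15.9% in control glands). By rank within each library, 13 members lay above in KO glands (20.4% of all genes) and 17 in control glands (20.3%), with 4 below in each (25.8% of all genes in KO glands, 21.6% in control glands). On the common scale the median log2 ratio of involution to lactation was 0.43 over the members in KO glands and 0.68 in control glands, where all genes had 0.19 in KO glands and 0.12 in control glands. Manba and Gla were under the filter on low values at lactation and entered the member counts through their involution values. Such entry favours a place above lactation, so for Manba and Gla the order of the stages is a description only.

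The members that stood higher at involution on the common scale included proteases, glycosidases, the saposin precursor and membrane proteins, and neither cathepsin inhibitor. Ctsl had a ratio of involution to lactation means of 5.22 in KO glands and 3.49 in control glands, with stages apart in both. Cd63 had a ratio of 3.68 in KO glands and 4.11 in control glands, Lgmn 4.01 in KO glands and 2.33 in control glands, Ctsa 2.91 in KO glands and 3.60 in control glands, and Hexa 2.60 in both. These 5 members, with Ctsf, Manba, Tpp1, Psap, Scarb2, Npc1 and Mcoln1, had stages apart in both genotypes. For Manba, at 0.505 to 1.16 FPKM at lactation as deposited, this is a description only, because it entered through its involution values. Among the cathepsins 3 of 9 lay apart above lactation in KO glands (Ctsa, Ctsf and Ctsl) and 6 of 9 in control glands (also Ctsb, Ctsd and Ctsz). Without the mouse numbers of both stages these counts were 5 of 9 in KO glands and 6 of 9 in control glands. Ctsb had a ratio of 1.08 in KO glands, with stages overlapping, and 1.93 in control glands, and Ctsd had 1.51 in KO glands, with stages overlapping, and 2.17 in control glands. Among the other hydrolases 4 of 15 lay apart above lactation in KO glands and 7 of 15 in control glands, and among the membrane proteins 5 of 6 in KO glands and 4 of 6 in control glands. Without the mouse numbers of both stages, 7 of 15 other hydrolases in KO glands and 5 of 13 in control glands lay apart above lactation. The difference between genotypes in these counts was not tested.

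Some members went the other way on the common scale. Ctsc had a ratio of 0.261 in KO glands and 0.283 in control glands, Npc2 0.540 in KO glands and 0.404 in control glands, and Smpd1 0.552 in KO glands and 0.648 in control glands, with involution apart below lactation in both genotypes. The direction depended on the scale for Smpd1, and for Npc2 in KO glands. As deposited, Smpd1 in control glands ran from 15.3 to 18.6 FPKM at involution and from 9.81 to 12.4 FPKM at lactation. Its KO means were 16.7 FPKM at involution and 12.3 FPKM at lactation. Deposited means of Npc2 at involution and lactation were 122.5 and 92.7 FPKM in KO glands, and 116.9 and 123.1 FPKM in control glands. In deposited FPKM Ctsc was the 1 member below lactation in KO glands, at 53.8, 36.8, 49.5 and 37.7 FPKM at involution and 88.1, 63.7 and 57.3 FPKM at lactation. Its share of the cathepsin sum was 1.59% to 2.15% in KO glands and 1.50% to 2.17% in control glands at involution, and 9.85% to 12.5% in KO glands and 10.6% to 14.1% in control glands at lactation. Ctsc contributed a larger part of the cathepsin message in every lactation library than in any involution library, on a measure that does not depend on the scale of the tables. Macrophage marker sums in deposited FPKM were 328 to 942 in KO glands and 383 to 511 in control glands at involution, and 73.4 to 104.5 in KO glands and 74.0 to 83.2 in control glands at lactation, and their part in the stage ratios was not tested.

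**Figure D4:**
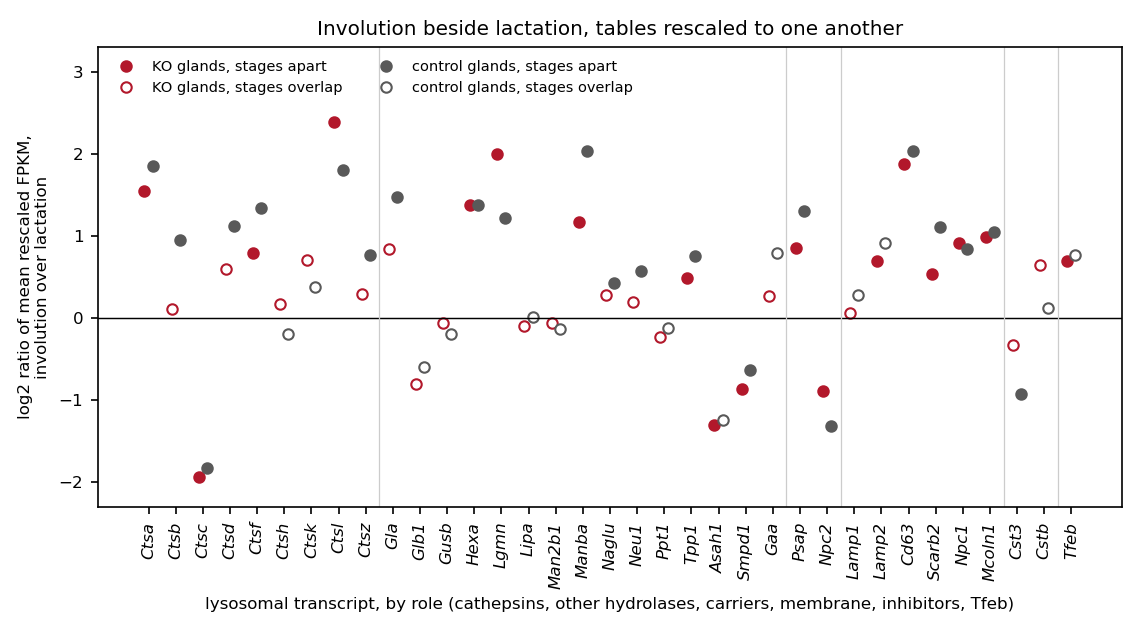
Log2 ratio of mean rescaled FPKM, involution over lactation, for the 35 members in KO glands (red) and control glands (grey), with all 13 libraries on one scale. Filled points are members whose involution and lactation libraries do not overlap, and Ctsl, Cd63, Lgmn and Ctsa lie among the highest while Ctsc lies lowest in both genotypes.

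The wider lysosomal pathway was read from lists of genes outside the members. At involution 0 genes of any of these lists passed the adjusted threshold with limma. Of 36 further hydrolases 35 were tested, 19 below 0 with a median of -0.06, and 3 were lower and 1 higher in KO glands at an unadjusted p under 0.05, where 3.24% and 3.6% of all genes were. Pla2g15, a lysosomal phospholipase, stood at 22.4, 21.0, 25.1 and 21.1 FPKM in KO glands and at 39.2, 38.3 and 42.3 FPKM in control glands. The groups stood well apart, with a log2 difference of -0.78 ± 0.13 (SE, adjusted p = 0.173, limma), the smallest p of these lists. Sgsh, the sulfamidase of heparan sulfate breakdown, stood at 10.8, 7.57, 7.83 and 13.6 FPKM in KO glands and at 19.7, 22.6 and 12.8 FPKM in control glands (log2 difference -0.80 ± 0.26, SE, adjusted p = 0.571, limma). KO M44440 lay above the lowest control.

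Of 20 genes of lysosomal sorting and of the factor family of TFEB, 19 were tested, 10 below 0 (median -0.01) and 2 lower at an unadjusted p under 0.05 (3.24% of all genes). Gnptab, which encodes 2 subunits of the enzyme that puts the mannose 6-phosphate tag on hydrolases, stood at 5.09, 7.47, 7.08 and 6.47 FPKM in KO glands and at 14.9, 10.2 and 14.8 FPKM in control glands. Every KO library lay below every control library, with a log2 difference of -0.89 ± 0.19 (SE, adjusted p = 0.276, limma). Sort1, the sorting receptor sortilin, stood at 15.9, 17.9, 22.9 and 10.7 FPKM in KO glands and at 25.2, 29.3 and 28.0 FPKM in control glands (log2 difference -0.69 ± 0.24, SE, adjusted p = 0.599, limma). At lactation Gnptab stood at 2.44, 1.95 and 3.07 FPKM in KO glands and at 2.63, 2.85 and 2.57 FPKM in control glands, and the groups overlapped. Among 16 tested subunits of the proton pump 10 were below 0 (median -0.02), led by the catalytic subunit gene Atp6v1a at 28.0, 27.9, 30.5 and 28.6 FPKM in KO glands and 36.3, 38.4 and 57.8 FPKM in control glands (log2 difference -0.55 ± 0.18, SE, adjusted p = 0.597, limma). The pump gene Atp6v0a2 overlapped, at 18.1 to 25.7 FPKM in KO glands and 21.6 to 28.75 FPKM in control glands. Among 21 further membrane proteins 10 were below 0 (median 0.07). Tpcn1 ran from 14.5 to 20.9 FPKM in KO glands and from 12.7 to 13.9 FPKM in control glands, with no overlap. Slc11a1, a metal transporter of phagocytes, stood at 4.38, 3.42, 3.77 and 2.76 FPKM in KO glands and at 2.69, 2.19 and 2.50 FPKM in control glands (log2 difference 0.41 ± 0.16, SE, adjusted p = 0.663, limma). Of the macrophage markers 9 of 11 also had a log2 difference above 0, and their part in this result was not tested.

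Further protease inhibitors stood above 0 at involution, unlike the 2 cathepsin inhibitors among the members. Cst3 and Cstb both had a log2 difference below 0 (median -0.09). Of 12 listed, 7 were tested, and all 7 had a log2 difference above 0 at involution (median 0.44), where 48.2% of all genes lay below 0. An unadjusted p under 0.05 was reached by 3 of them (3.6% of all genes). Above 0 were also 8 of 8 fibroblast markers (median 0.77, 3 at an unadjusted p under 0.05), 11 of 11 adipocyte markers (0.64) and 9 of 11 macrophage markers (0.37), and their part in this result was not tested. Serpinb6a, an intracellular serpin, stood at 131, 79.6, 143 and 79.0 FPKM in KO glands and at 67.7, 47.6 and 58.7 FPKM in control glands, with no overlap (log2 difference 0.87 ± 0.27, SE, adjusted p = 0.546, limma). Serpina3n, a secreted acute-phase serpin, had levels of 90.8, 123, 86.4 and 36.5 FPKM in KO glands and 38.1, 32.8 and 29.8 FPKM in control glands (log2 difference 1.21 ± 0.38, SE, adjusted p = 0.563, limma). Only KO M44440 lay inside the range of the controls. Both genes belong to mouse serpin clusters with close copies, among which reads can be split, and how the authors counted such reads is not known here. At lactation 4 of the 12 listed inhibitors were tested, 2 below and 2 above 0 (median -0.03). There 1 of them was lower in KO glands at an unadjusted p under 0.05 (0.607% of all genes).

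**Figure D5:**
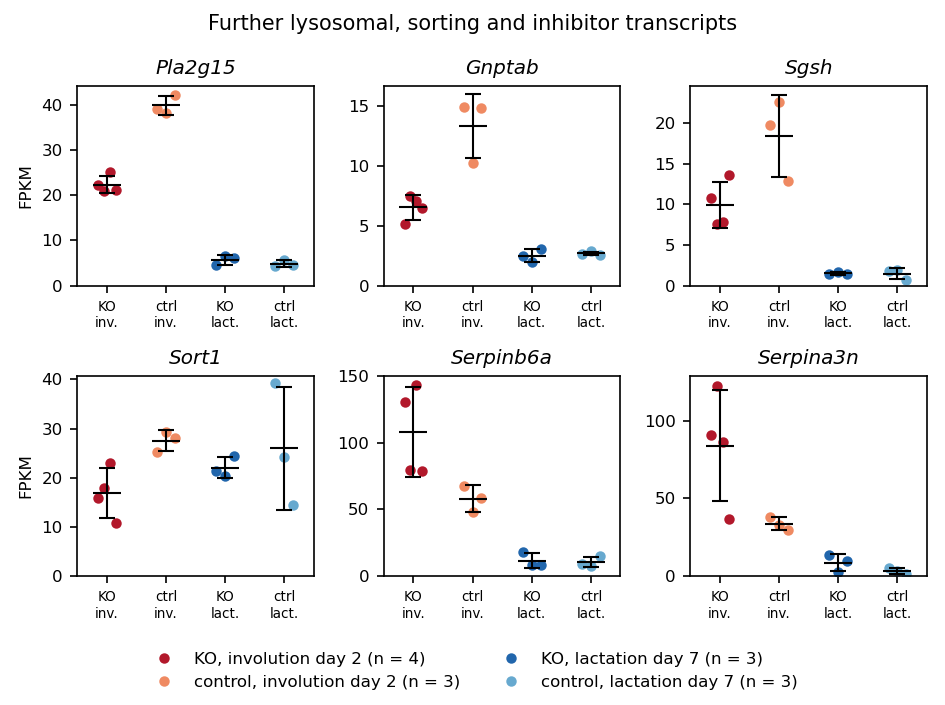
FPKM of 6 genes from the wider lysosomal lists in each of the 13 libraries (points), with group means and SD (bars), on linear axes that start at 0. At involution the KO points lie below all control points for Pla2g15, Gnptab and Sort1 and above all control points for Serpinb6a, and at lactation the genotypes overlap for Pla2g15 and Gnptab.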

How the data were processed

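Levels are the deposited FPKM, 1 table per stage. CASAVA, TopHat, cutadapt and mouse build mm9 stand in the submitters' processing notes, while the FPKM program, gene annotation and scaling are not given in these sources. Groups and mouse numbers were taken from the titles. Replicates of a stage carry different mouse numbers, and p-values measure the spread between these libraries.

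Within each table FPKM was rescaled by a median-of-ratios factor. Genes that reached 1 FPKM in 3 or more of the fitted libraries entered limma 3.58.1 in R 4.3.3 (eBayes with trend, two-sided) on log2(FPKM + 1), Benjamini-Hochberg adjusted over every gene tested, at a threshold of 0.05. A fold change on this scale understates the change of low genes. The script was tested on simulated data. The alternatives were a pseudocount of 0.1, no filter, no rescaling, quantile normalization, robust eBayes, weights for single libraries and leaving out each library in turn, with mouse number as a block (duplicateCorrelation) added for the difference between the stages. Relative depth came from low values (under 0.3 FPKM): 69.5% of 33942 pairs at involution and 70.9% of 27125 at lactation had whole-number ratios (numbers to 5, log2 tolerance 0.02). With FPKM no count test was run.

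The members and lists were chosen with earlier results of these data known. Statistics are given for Ctsb, Ctsl, Ctsd, Lamp2 and Tfeb and for members with an unadjusted p under 0.05, and of each further list for up to 2 genes with the smallest p at involution. Of the other cell type lists at involution, 8 of 8 fibroblast markers were above 0 (median 0.77), 8 of 9 basal epithelial markers (0.40), 11 of 11 adipocyte markers (0.64), 4 of 8 endothelial markers (0.02), 2 of 5 tested neutrophil markers (-0.22), 2 of 10 luminal markers (-0.16), 2 of 3 T and NK cell markers (0.08) and 1 of 5 B and plasma cell markers (-0.51).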

Additional observations from a re-analysis of the deposited data

How the results depend on the processing

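No member passed the adjusted threshold under any of the alternatives run at involution, at lactation or for the difference between the stages. Genes called at involution numbered 9, and 14 with robust eBayes, 20 with weights for single libraries and 2 to 9 without single libraries. At lactation 1 gene was called, 2 with a pseudocount of 0.1, 9 with weights for single libraries and 0 to 3 without single libraries. For the difference between the stages 10 genes were called, 16 with weights for single libraries, 20 with mouse number as a replicate block and 6 to 12 without single libraries. Members above lactation numbered 30 in KO glands as deposited, 14 on the common scale and 13 by rank, and 28 in control glands, 18 on the common scale and 17 by rank. Without lactation control M44175, a choice made after seeing the data, 30 of 35 members in control glands lay above as deposited (86.2% of all genes) and 21 on the common scale (35.8%). Without the mouse numbers of both stages 30 of 35 did in KO glands (85.3% of all genes) and 27 of 33 in control glands (76.0%) as deposited, and 20 of 35 in KO glands (36.5%) and 16 of 33 in control glands (27.8%) on the common scale. The 6 members with an unadjusted p under 0.05 at involution numbered 2 without control M43768 or control M43914 and 3 without KO M43196 or KO M43767. Among log2 differences, Ctsl at involution ran from -0.13 to 0.36 without single libraries (-0.021 without KO M43196 and -0.037 without control M43768), Tfeb at involution from -0.24 to 0.24 (-0.028 with weights), Ctsd at lactation from -0.0082 to 0.32, Lamp2 at lactation from -0.30 to 0.26 (0.027 with quantile normalization, 0.058 with weights, 0.047 without KO M42734) and Tfeb at lactation from -0.050 to 0.17 (-0.0096 without KO M42734). The cause was not tested. The signs of the log2 differences of Ctsb, Lipa, Ctsk, Lgmn, Manba and Scarb2 at involution held in all 13 alternatives. Within a stage no paired analysis was possible because KO and control libraries share no mouse number. The block on mouse number, added after seeing the data, rests on the 2 numbers that stand at both stages (correlation 0.697). With 3 or 4 libraries a group, and depth known only relative to the other libraries, a p above the threshold does not show equal levels.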
